A study of Mus musculus with 19 samples.

Results

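Mmp8, Ltf and S100a8 encode 3 proteins of maturing neutrophils. They were followed on every array of a study of FDCPmix, a multipotent blood progenitor line of the mouse that depends on interleukin-3. The members were the spots that the platform annotation names with 1 of these symbols alone. This gave 4 spots for 3 genes, of 13891 spots and 9834 genes with a single symbol. Mmp8 (matrix metallopeptidase 8, probe 2853) lies on chromosome 9 from 7558429 to 7568486. Ltf (lactotransferrin, probes 4055 and 4403) lies on chromosome 9 from 111019292 to 111042766. S100a8 (probe 2651) lies on chromosome 3 from 90669071 to 90670034, a gene of 964 bases. All 3 positions are those of RefSeq in GRCm38.p6, and the place of each probe within its transcript is not known from the files used.

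The study used 2-colour arrays, on which a sample's own RNA and a reference RNA compete for the same spots. One group of 4 arrays set treated FDCPmix cells, with no time stated, against non-treated cells. The other groups took cells after tamoxifen, which binds the oestrogen receptor, and set them against treated cells at 0 h, with 4 arrays each at 3, 7 and 12 h and 3 arrays at 23 h. So 0 h, the control of the time course, was itself treated. The agent given to the 4 treated arrays without a time is not named by their labels, and no receptor, transgene or clone is named for any group. The own RNA carried Cy5 on replicates 1 and 2 and Cy3 on replicates 3 and 4 of each group. Replicate 2 at 23 h was not analysed here. The titles also carry the words ES cell line, and the protocols speak of organs and of control animals, which neither the titles nor the sample names explain. Nothing says that replicates were separate cultures, so p-values measure only the spread between these arrays, which may be technical.

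Neutrophils carry their proteins in granules that are filled in sequence as the cells mature. Azurophil granules, made first, hold myeloperoxidase and serine proteases, and specific granules, made later, hold lactoferrin, the collagenase MMP8 and antimicrobial peptides. Lactoferrin, the product of Ltf, binds iron and keeps it from microbes. MMP8 cuts fibrillar collagen. S100A8 is a small calcium-binding protein that pairs with S100A9 to form calprotectin, which is abundant in the neutrophil cytosol and binds zinc and manganese. C/EBP family factors and PU.1 are known regulators of the granulocyte programme, and late granule genes are known targets of C/EBP epsilon.

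The promoters of the 3 genes are shown because the members are followed as a group, and each holds the letters of a C/EBP motif. The sequences are the 250 bases upstream of the RefSeq start in GRCm38.p6, plus strand, which is the strand of all 3 genes. They span chr9:7558179-7558428 for Mmp8, chr9:111019042-111019291 for Ltf and chr3:90668821-90669070 for S100a8. Capitals mark matches to the searched letters.
Mmp8: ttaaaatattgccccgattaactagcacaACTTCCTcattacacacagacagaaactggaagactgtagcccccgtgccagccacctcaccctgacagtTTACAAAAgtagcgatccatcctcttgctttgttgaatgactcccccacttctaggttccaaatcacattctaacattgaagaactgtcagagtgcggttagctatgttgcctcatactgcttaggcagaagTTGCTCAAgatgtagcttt
Ltf: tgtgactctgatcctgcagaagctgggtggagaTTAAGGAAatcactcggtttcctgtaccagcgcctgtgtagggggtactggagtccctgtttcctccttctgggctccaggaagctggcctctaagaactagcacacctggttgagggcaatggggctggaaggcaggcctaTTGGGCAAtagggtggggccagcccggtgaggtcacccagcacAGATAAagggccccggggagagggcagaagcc
S100a8: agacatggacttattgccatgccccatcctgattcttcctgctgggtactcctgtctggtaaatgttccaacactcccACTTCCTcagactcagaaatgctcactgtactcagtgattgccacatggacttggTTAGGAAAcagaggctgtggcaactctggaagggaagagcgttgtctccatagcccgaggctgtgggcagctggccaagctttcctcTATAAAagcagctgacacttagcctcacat

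The C/EBP search, TTNNGNAA on either strand, matched at 151 to 144 and 19 to 12 bases before the start of Mmp8 and at 217 to 210 and 75 to 68 bases before that of Ltf. In S100a8 it matched at 117 to 110 bases before the start. These letters occur in 36.8% of 32851 promoters of the same length, so their presence in 3 of 3 members is a description only. The PU.1 search, AGGAAGT on either strand, matched Mmp8 at 221 to 215 bases and S100a8 at 172 to 166 bases before the start, and occurs in 7.69% of promoters. A TATAAA on the gene's strand lay 30 to 25 bases before the start of S100a8 (7.59% of promoters). An AGATAA, searched on either strand as a GATA motif, lay 32 to 27 bases before the start of Ltf (9.99%). TATAAG on the gene's strand (4.01% of promoters) and the GC box GGGCGG on either strand (32.7%) matched none of the 3. No match overlapped another. A match is not evidence of binding, and no binding was measured in this study.

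The authors deposited 1 log ratio per spot, read here as log2, and each array was centred on its median. The sources used here state neither its base, nor its numerator, nor how it was normalized, so folds hold only if the base is 2. Values are given as own RNA over reference, a direction that is assumed. Each array held a repeated extreme value, removed before analysis. It was positive where the own RNA carried Cy5 and negative where it carried Cy3 on 18 of 19 arrays. Ratios of own RNA over reference would show this, but so would reference over own RNA if the other dye gave the extremes. Under that reading every sign given here, higher or lower, would be the opposite. With the Cy3 arrays turned the other way, some member means change sign, and these values are given with the limits at the end. A log ratio holds no expression level, so the labelled cell type could not be checked against its markers, and levels of different genes are not compared.

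Of the 19 arrays, 2 stood apart by measures other than the members. The array labelled 7 h replicate 4 was the one whose repeated extreme had the sign opposite to its dye label, at 16.291 with the own RNA in Cy3. The array labelled 23 h replicate 3 had a deposited median of 0.233, against medians within 0.1 of 0 on the other 18, and its extreme of -16.61 followed its dye. Over all features, arrays of one group agreed weakly. The correlation of an array with the mean of its group's other arrays was -0.035 on 7 h replicate 4 and -0.126 on 23 h replicate 3, but also -0.118 on 7 h replicate 3. No pair of arrays of 1 dye in a group correlated below -0.149. Calls of the members on the time course are therefore given with and without these 2 arrays. List genes and markers are described mainly without them, with counts of calls from all arrays alongside. Member values of the 2 arrays were known from an earlier analysis when they were set aside, so calls made without them are not independent evidence.

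Those 2 arrays were also the ones on which Mmp8 and Ltf ran against their groups, and on which S100a8 had its highest value of the group. Mmp8, Ltf and S100a8 were all above 0 on 7 h replicate 4, at 0.50, 0.58 and 0.40. On the other 3 arrays at 7 h, Mmp8 and Ltf were below 0 on each, and S100a8 was at 0.007, 0.029 and -0.62, so that by sign its odd array at 7 h was replicate 3. On 23 h replicate 3 the values were 1.19 for Mmp8, 0.97 for Ltf and 0.33 for S100a8, while the 2 other arrays at 23 h were below 0 for all 3 genes. On no other array of the 19 were all 3 members above 0. The plot of the members by array shows both open squares above the rest of their groups in each panel.

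**Figure D1:**
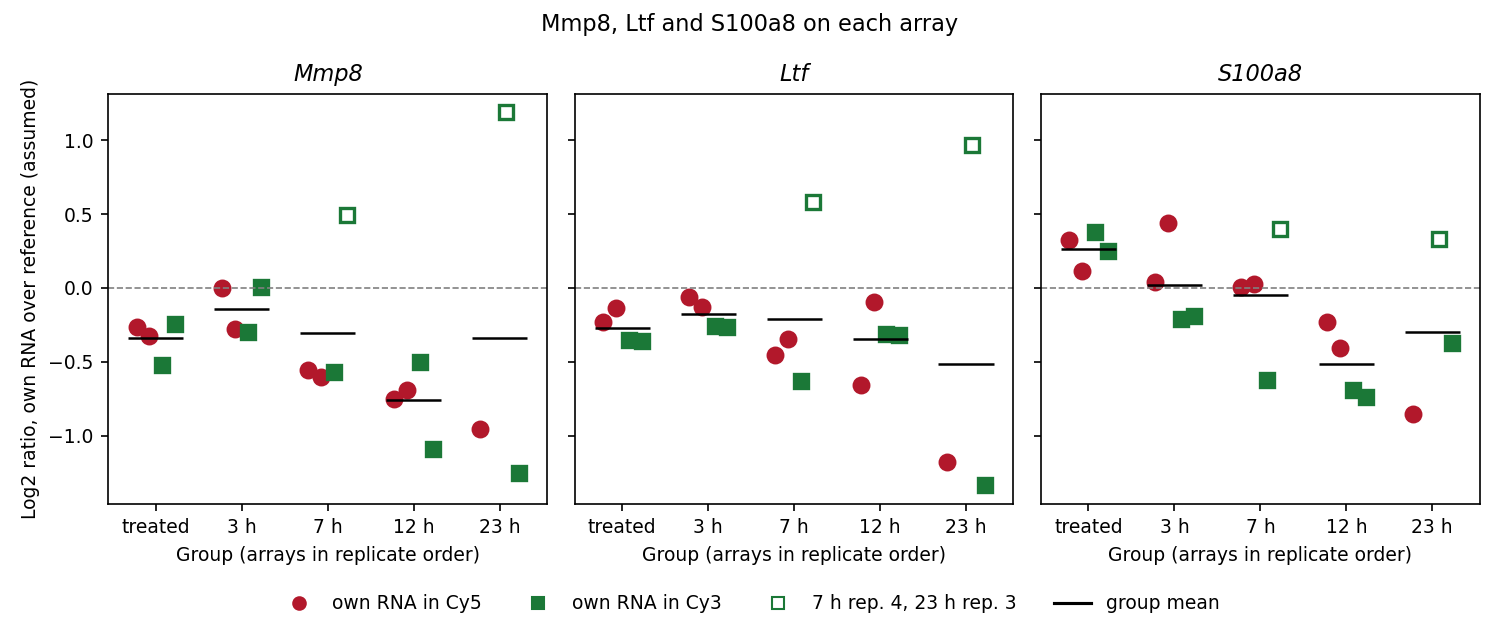
Centred log2 ratio of Mmp8, Ltf and S100a8 (y axis, own RNA over reference as assumed) on each of 19 arrays by group (x axis), with circles for own RNA in Cy5, squares for Cy3, and black lines for group means. Open squares are 7 h replicate 4 and 23 h replicate 3, which lie above 0 in all 3 panels, while the filled symbols of Mmp8 and Ltf reach their lowest values at 23 h.

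In treated cells against non-treated cells, Mmp8 and the mean of the Ltf probes were below 0 on 4 of 4 arrays. S100a8 was above 0 on 4 of 4. Ltf probe 4055 alone was above 0 on replicates 1 and 2 (0.015 and 0.072). None of the 3 members passed the test. Mmp8 was at -0.27, -0.33, -0.52 and -0.25 on replicates 1 to 4, a mean of -0.34 ± 0.13 (SD, n = 4). Ltf was at -0.23, -0.13, -0.35 and -0.36, a mean of -0.27 ± 0.11 (SD, n = 4). S100a8 was at 0.32, 0.12, 0.38 and 0.25, a mean of 0.27 ± 0.11 (SD, n = 4). The ranges of S100a8 and of the 2 granule genes did not overlap, and neither dye stood apart in Mmp8 or S100a8. How common a shared sign on 4 of 4 arrays, or such a gap, was among other features was not counted. The fitted folds were 0.789 for Mmp8 (SE of the log2 ratio 0.11), 0.830 for Ltf (SE 0.10) and 1.203 for S100a8 (SE 0.10), each with a limma adjusted p of 0.793. Of 15915 features 0, or 0%, were called at an adjusted p below 0.05 here, and 988 had an unadjusted p below 0.05. These arrays were wide, with an SD over spots of 0.62 to 0.64, against 0.23 to 0.36 on the time-course arrays.

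S100a9, the calprotectin partner of S100a8, did not share the sign of S100a8 in treated cells. It was at -0.46, -0.25, -0.50 and -0.37 on replicates 1 to 4, so S100a8 exceeded it on 4 of 4 arrays, by 0.66 ± 0.22 (SD, n = 4) in log2 ratio. S100a9 had an adjusted p of 0.792 in the limma fit. S100a8 also exceeded S100a9 on 4 of 4 arrays at 3 h, by 0.24 ± 0.28 (SD, n = 4), and on 2 of 4 at 7 h, by 0.07 ± 0.26. It did so on 1 of 4 at 12 h (-0.14 ± 0.22) and 1 of 3 at 23 h (-0.02 ± 0.29, SD, n = 3). These differences include 7 h replicate 4 and 23 h replicate 3, and the difference between the 2 genes was not tested.

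Across the time course the 2 specific granule genes had both their lowest and their highest values at 23 h, the highest on replicate 3. The mean of Mmp8 was lower at each later time once the 2 arrays named above were set aside. Differences among the times were not called for any member, with or without these arrays. Averaged over the 4 times, Mmp8 was at a fold of 0.638, Ltf at 0.674 and S100a8 at 0.790 of 0 h without these arrays. All 3 then passed the test, as did 2.21% of all features, in a fit chosen with member values known. With 1 further array left out, the call of S100a8 held in 8 of 13 fits. With all arrays the mean log2 ratios were smaller, -0.40, -0.32 and -0.21, and no member passed, nor did any other feature. These are bulk samples, in which fewer cells of a type and less RNA per cell cannot be told apart.

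For Mmp8 the 3 h arrays straddled 0, with 0, -0.28, -0.30 and 0.006 on replicates 1 to 4. At 7 h replicates 1 to 3 lay within 0.05 of each other, at -0.56, -0.60 and -0.57, and replicate 4 was at 0.50. At 12 h all 4 arrays were below 0, at -0.76, -0.69, -0.50 and -1.09, a mean of -0.76 ± 0.25 (SD, n = 4). At 23 h replicates 1 and 4 were at -0.95 and -1.26 and replicate 3 was at 1.19, the widest range of any group for this gene, 2.45. Without the 2 arrays, the ranges at 3 h and 7 h did not overlap, while 7 h overlapped with 12 h and 12 h with 23 h. In the order 3 h, 7 h, 12 h and 23 h, only the first step was thus free of overlap. How many other features had such a gap was not counted.

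As the mean of its 2 probes, Ltf was below 0 on all 13 time-course arrays other than the 2 named. Probe 4403 alone was above 0 on 3 h replicate 2 (0.058), 12 h replicate 2 (0.276) and 12 h replicate 4 (0.087). At 3 h it was at -0.06, -0.13, -0.26 and -0.26, a mean of -0.18 ± 0.10 (SD, n = 4), with the 2 Cy5 arrays nearer 0 than the 2 Cy3 arrays. At 7 h it was at -0.46, -0.34 and -0.63 on replicates 1 to 3 and at 0.58 on replicate 4. At 12 h it was at -0.66, -0.09, -0.32 and -0.32, a mean of -0.35 ± 0.23 (SD, n = 4), with no lower mean than at 7 h without replicate 4 (-0.48). At 23 h replicates 1 and 4 were at -1.18 and -1.34 and replicate 3 at 0.97. The 2 lower arrays at 23 h did not overlap with any array at 3, 7 or 12 h. Without 7 h replicate 4, the ranges at 3 h and 7 h did not overlap either, while 12 h overlapped with both. How common such gaps between so few arrays were among other features was not counted.

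S100a8 showed no common sign before 12 h. At 3 h it split by dye, with 0.04 and 0.44 on the Cy5 arrays and -0.21 and -0.19 on the Cy3 arrays, so its mean of 0.02 ± 0.30 (SD, n = 4) had no settled sign and turned negative with array weights or with 2 of the rescalings tried. At 7 h the Cy5 arrays were at 0.007 and 0.029, replicate 3 at -0.62 and replicate 4 at 0.40. At 12 h all 4 arrays were below 0, at -0.23, -0.41, -0.69 and -0.74, a mean of -0.52 ± 0.24 (SD, n = 4), and the Cy3 arrays were again the lower pair. At 23 h the arrays were at -0.86, 0.33 and -0.37 on replicates 1, 3 and 4. Among the 13 other arrays S100a8 was below 0 on 9, compared with 11 for Mmp8 and 13 for the mean of the Ltf probes.

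The test at each time compared the group mean with 0 in 1 limma fit of the 15 time-course arrays with dye as a term, and p-values were adjusted over all features. No member was called with all arrays at any time, nor were many other genes. At 3 h 0% of 16024 features were called (1740 at an unadjusted p below 0.05), at 7 h 0% (1138), at 12 h 0.0187%, which is 3 features, and at 23 h 0% (532). For the mean of the 4 times 0% were called (1160), and 0% for differences among the times (1062). The adjusted p of Mmp8 was 0.728 at 12 h and 0.655 for the mean of the times, with SEs of 0.29 and 0.15. That of S100a8 was 0.687 at 12 h and 0.687 for the mean. Ltf came to 0.957 at 12 h and 0.687 for the mean.

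Without 7 h replicate 4 and 23 h replicate 3, the SE of Mmp8 at 12 h dropped from 0.29 to 0.09 while its log2 ratio stayed at -0.76. Mmp8 was then called at 7 h (-0.59, SE 0.11, limma adjusted p = 0.0470), at 12 h (adjusted p = 0.00636) and at 23 h (-1.11, SE 0.13, adjusted p = 0.00443, a fold of 0.465). Ltf was called at 23 h (-1.26, SE 0.11, adjusted p = 0.000587, a fold of 0.418), and had adjusted p-values of 0.0511 at 7 h and 0.163 at 12 h. S100a8 was called at no single time, with adjusted p-values of 0.617 at 7 h, 0.149 at 12 h and 0.221 at 23 h. No member was called at 3 h. The share of all 15983 features called in this fit was 0.125% at 3 h, 0.463% at 7 h, 0.294% at 12 h and 0.369% at 23 h, against 1 of 3 members at 7 h, 1 of 3 at 12 h and 2 of 3 at 23 h.

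**Figure D2:**
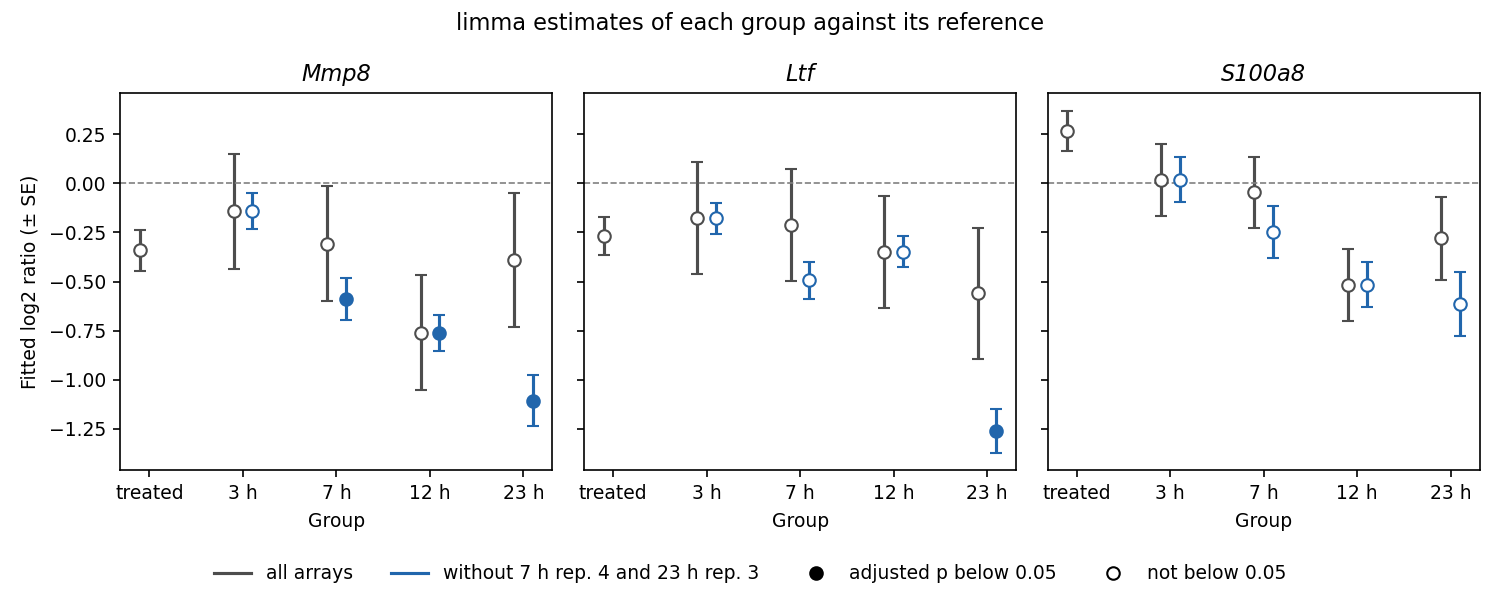
Fitted log2 ratio of each group against its reference (y axis) with SE bars, for the 5 groups (x axis), from all arrays (grey) and without 7 h replicate 4 and 23 h replicate 3 (blue), with filled points for adjusted p below 0.05. The filled points are Mmp8 at 7, 12 and 23 h and Ltf at 23 h, all without the 2 arrays, and no grey point is filled.

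For the mean of the 4 times without the 2 arrays, Mmp8 was at -0.65 (SE 0.05) and Ltf at -0.57 (SE 0.05), both with a limma adjusted p of 9.58e-05. S100a8 was at -0.34 (SE 0.07, adjusted p = 0.0227). So 3 of 3 members were called, where 2.21% of all features were, 133 higher and 221 lower. Differences among the 4 times were not called for any member, with adjusted p-values of 0.225 for Mmp8, 0.0767 for Ltf and 0.498 for S100a8, and 0.0626% of features were called. The ratios of Mmp8 and Ltf lay furthest below 0 at 23 h in this fit, but a change between times did not pass the test.

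How far these calls rest on single arrays was checked by leaving out each of the 13 remaining arrays in turn. All these fits leave out the 2 arrays on which Mmp8 and Ltf ran against their groups, a choice made with member values known. A call that holds in them is thus not independent support. The calls of Mmp8 and Ltf for the mean of the times held in 13 of 13 fits. That of S100a8 held in 8 of 13 and was lost without 3 h replicate 3, 3 h replicate 4, 7 h replicate 3, 12 h replicate 2 or 12 h replicate 4, with an adjusted p of up to 0.0760. The 12 h call of Mmp8 held in 4 of 4. The 7 h call of Mmp8 was lost without any 1 of the 3 arrays, though its log2 ratio stayed between -0.63 and -0.56. At 23 h each such fit kept 1 array, so no spread at that time was measured and only log2 ratios are given. They were between -1.29 and -1.23 for Ltf and between -1.24 and -0.97 for Mmp8. S100a8 at 23 h was at -1.09 without replicate 4 and -0.13 without replicate 1. Differences among the times were called for Ltf without 12 h replicate 1 (F = 73.7 against 21.7, adjusted p = 0.00619) and in none of the other 12 fits. Without 23 h replicate 3 alone, the mean of Mmp8 over the times was -0.58 with an adjusted p of 0.0315, and that of Ltf was -0.50 with an adjusted p of 0.0599. Without 7 h replicate 4 alone, neither passed (adjusted p = 0.332 and 0.429).

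Ltf was the member with 2 probes, and these agreed on the 2 lowest and the 2 highest arrays but not throughout. Their signs were opposite on 5 of 19 arrays. With each dye's mean removed, their correlation was 0.74 over 19 arrays and 0.58 over the 17 without the 2 named arrays, a description of probes that share the same hybridisations. At 12 h probe 4055 was below 0 on 4 of 4 arrays, with a mean of -0.59 ± 0.12 (SD, n = 4), while probe 4403 was at -0.67, 0.28, -0.09 and 0.09, a mean of -0.10 ± 0.41 (SD, n = 4). In treated cells the disagreement ran the other way. Probe 4403 was below 0 on 4 of 4 arrays (-0.39 ± 0.06, SD, n = 4), and probe 4055 split by dye, with 0.015 and 0.072 in Cy5 and -0.35 and -0.32 in Cy3. At 23 h both were low on replicates 1 and 4 (-1.51 and -1.28 for 4055, -0.85 and -1.39 for 4403) and high on replicate 3 (1.32 and 0.61).

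**Figure D3:**
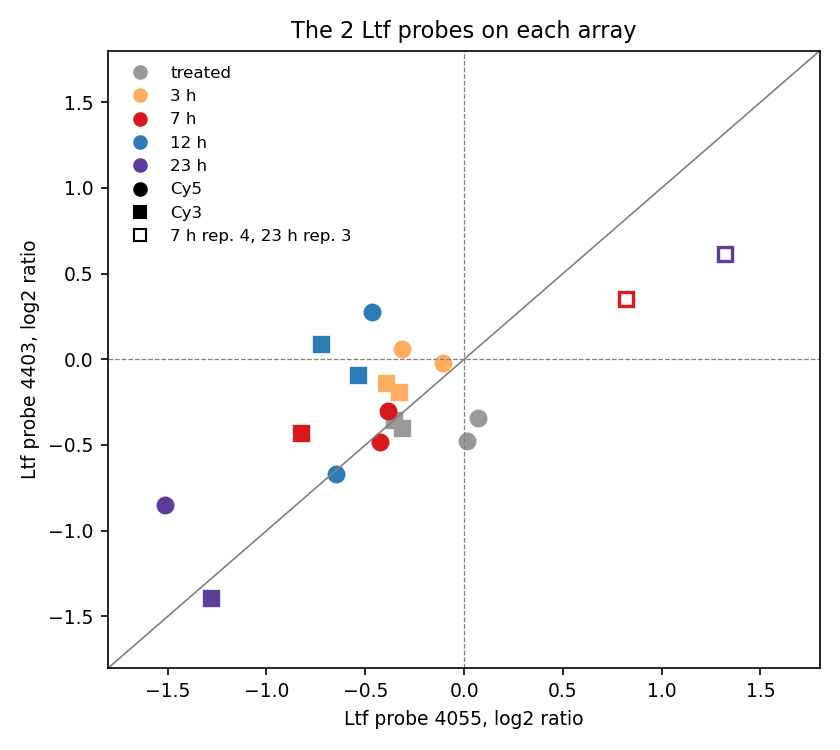
Centred log2 ratio of Ltf probe 4403 (y axis) against Ltf probe 4055 (x axis) on 19 arrays, coloured by group, with circles for own RNA in Cy5, squares for Cy3, and open squares for 7 h replicate 4 and 23 h replicate 3. The grey line marks equal values, and the 5 arrays above 0 on one axis and below 0 on the other are those on which the probes had opposite signs.

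Other genes of neutrophil granules were lower alongside the members in the fit without the 2 arrays. The lists held 126 genes of neutrophil biology, the members left out, of which the platform named 73. The lists were chosen with earlier results of these data known, so their counts describe and do not support. For the mean of the times, 14 of 72 tested genes were lower and 0 higher, or 19.4% against 2.21% of all features. With all arrays 0 of 72 were called, as for all features. The 14 genes, called with these arrays left out, were all above 0 on 7 h replicate 4, and 12 of 14 were above 0 on 23 h replicate 3. Of all 73 list genes, 39.7% were below 0 on 7 h replicate 4, against 49.7% of all features. On 23 h replicate 3 the shares were 47.9% and 49.6%, so the list as a whole did not stand apart there.

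The specific granule list, which holds the genes stored with lactoferrin, had the most calls. Of its 10 measured genes, 10 were below 0 and 6 were called lower, with a median of -0.21 against 0.003 over all features. With all arrays 8 of the 10 were below 0 for the mean of the times, with a median of -0.14, and 0 were called. The values that follow are without the 2 arrays. Camp, which encodes the antimicrobial cathelicidin, was at -0.67 (SE 0.04, limma adjusted p = 1.84e-05) for the mean of the times, and at -1.04 and -1.36 on 23 h replicates 1 and 4. Ngp, the neutrophilic granule protein, was at -0.56 (SE 0.04, adjusted p = 6.32e-05), and Lyz2, a lysozyme that monocytes also make, at -0.59 (SE 0.04, adjusted p = 1.84e-05). Lcn2, a siderophore-binding lipocalin, was at -0.29, Hp (haptoglobin) at -0.18 and Chil1 at -0.14. Of 5 measured genes of the azurophil granule list 3 were called lower. Elane, the neutrophil elastase, was at -0.49 (limma adjusted p = 1.84e-05) and Mpo, the myeloperoxidase, at -0.37 (adjusted p = 0.000122). Serpinb1a, an inhibitor of neutrophil elastase, was at -0.21. Elane and Mpo were also 2 of the 10 features called for differences among the times (adjusted p = 0.0372 and 0.0492), but with 1 further array left out the call of Elane held in 1 of 13 fits and that of Mpo in 0 of 13.

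**Figure D4:**
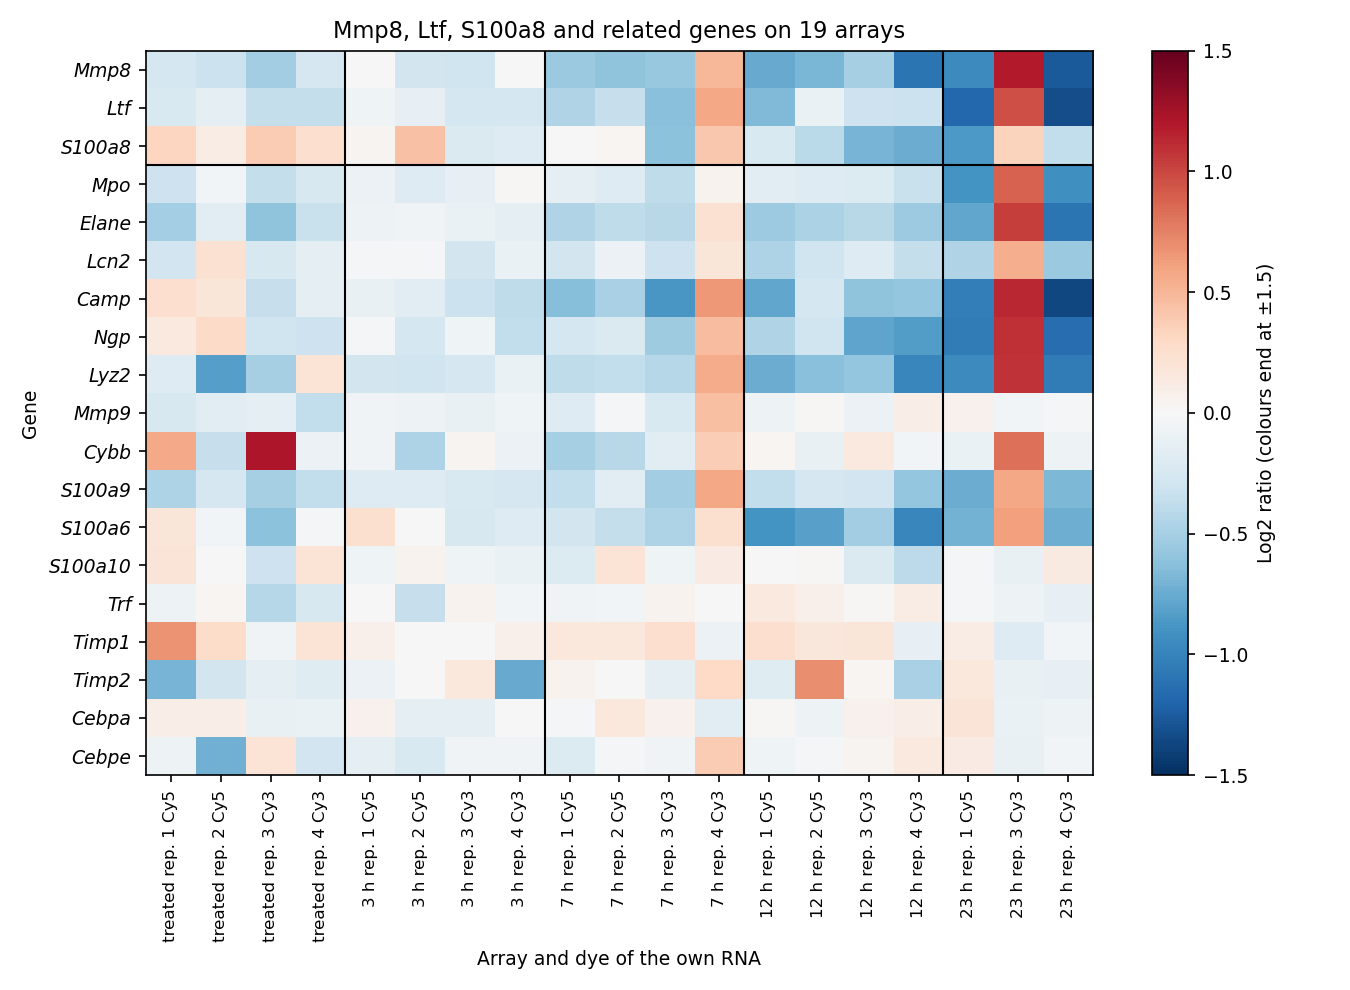
Centred log2 ratio (colour, from blue at -1.5 to red at 1.5) of Mmp8, Ltf, S100a8 and 16 other genes (rows) on 19 arrays (columns, with replicate and dye of the own RNA), with black lines between groups. The columns of 7 h replicate 4 and 23 h replicate 3 are red for Mmp8, Ltf, Elane, Camp, Ngp and Lyz2, where the other columns of their groups are blue, and the rows of Trf and Cebpa show no such columns.

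Partners and relatives of the members divided in the fit without the 2 arrays, and none was called with all arrays. In the S100 family 2 of 13 measured genes were lower, S100a9 at -0.42 (SE 0.04, adjusted p = 0.000122) and S100a6 at -0.49 (SE 0.05, adjusted p = 0.000302), while S100a10 was at -0.04 (adjusted p = 0.759). S100a9 was below 0 on all 13 arrays other than the 2 named. Of 2 measured calprotectin receptors 1 was lower, Bsg (basigin) at -0.24. None of 9 other matrix metalloproteinases was called, and Mmp9, the gelatinase of neutrophils, was at -0.06 (adjusted p = 0.501). None of 4 metalloproteinase inhibitors was called, with Timp1 at 0.09 and Timp2 at -0.05. Of 8 transferrin and iron genes 0 were called, and Trf, the serum relative of lactoferrin, was at -0.02 (adjusted p = 0.898).

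None of 5 NADPH oxidase genes was called, with Cybb, its membrane subunit, at -0.14 (adjusted p = 0.151). Of 4 tested gelatinase granule and secretory vesicle genes 1 was lower, Anxa1 (annexin A1) at -0.41, and of 2 surface receptors 1, Csf2rb, the shared beta chain of the interleukin-3 and GM-CSF receptors, at -0.25. Among 11 granulocyte transcription factors 0 were called. Cebpa was at 0.02 (adjusted p = 0.858) and Cebpe, the factor of late granule genes, at -0.03 (adjusted p = 0.743). Ctsg, Tfrc, Csf3r, Gfi1, Spi1 and Itgam have no value here. The calls of members, listed genes and other cell type markers were checked by leaving out each of the 13 arrays in turn. Of these calls, 14 of 20 for the mean of the times held in every fit, as did 6 of 8 at 12 h. At 7 h 0 of 6 held, and for differences among the times 0 of 2. Calls at 23 h are not counted here, as each such fit keeps 1 array at that time.

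In treated cells none of the 73 neutrophil genes was called, and 41 were below 0, with a median of -0.03 against 0.009 over all features. Elane was at -0.40 (limma adjusted p = 0.793), below 0 on 4 of 4 arrays like Mmp8 and Ltf. Camp (-0.01) and Ngp (-0.05) were above 0 on the 2 Cy5 arrays and below 0 on the 2 Cy3 arrays. Mpo was at -0.24 (limma adjusted p = 0.803). The means of these genes were thus all below 0 in the treated group, while Camp and Ngp differed in sign between arrays.

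A few markers of other cell types were also called lower in the fit without the 2 arrays. Of 37 measured markers of 8 other types, 22 were below 0 for the mean of the times without the 2 arrays, with a median of -0.01. With all arrays 0 of 37 were called, as for all features. Without the 2 arrays 3 were called lower, or 8.11% against 2.21% of all features. These were Mcpt8, a basophil protease (-0.45, adjusted p = 0.00146), Cpa3, a mast cell carboxypeptidase (-0.25, adjusted p = 0.0194), and Prg3, an eosinophil granule protein (-0.23, adjusted p = 0.00493). They make 2 of 5 mast cell and basophil markers and 1 of 3 eosinophil markers. Of 4 monocyte and macrophage, 4 erythroid, 5 megakaryocyte, 3 lymphoid, 6 pluripotency and 7 fibroblast markers 0 were called, with medians of -0.07, 0.04, -0.04, -0.01, 0.02 and -0.01. Mcpt8, Cpa3 and Prg3 were above 0 on 7 h replicate 4 (0.54, 0.21 and 0.30) and on 23 h replicate 3 (0.33, 0.12 and 0.46), as the members were. The part of these cell types in the members' ratios was not tested.

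The genes whose arrays followed a member most closely were found among 9734 genes, with each dye's mean removed, over 19 arrays. For Mmp8 they were Elane (r = 0.94), Lyz2 (0.94) and Ngp (0.92), and for Ltf they were Camp (0.94), Mgst2 (0.94), a microsomal glutathione transferase, and Elane (0.91). For S100a8 they were Ring1 (0.86), Nkx2-4 (0.84) and Nat8f2 (0.80). Mmp8 and Ltf correlated at 0.88, Mmp8 and S100a8 at 0.66, and Ltf and S100a8 at 0.60. Without the 2 arrays that lie at the extremes, the nearest genes were Hmgn2 (0.90), Cd47 (0.85) and Elane (0.85) for Mmp8, and Mpo (0.87), Camp (0.86) and Mgst2 (0.85) for Ltf. For S100a8 they were then Rmnd5b, Sap30l and Ring1, each at 0.86. Mmp8 and Ltf then correlated at 0.72, Mmp8 and S100a8 at 0.58, and Ltf and S100a8 at 0.46. These correlations describe arrays that share references and groups.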

How the data were processed

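Per the labels' protocols, total RNA was copied to cDNA that received Cy3 or Cy5 by indirect labelling. The deposited values, 1 per spot, were read as log2 ratios; the sources used here state no base, numerator or normalization. The members, gene lists and the choice of arrays set aside were made with earlier results of these data known. A value of at least 10 in size, repeated on 8 to 29 spots of each array, was set to missing, arrays were centred on their median, and probes of 1 gene were averaged (16148 features). Of 13891 probes with 1 symbol, 13855 matched RefSeq. A feature needed values on 3 of 4 arrays, and on 2 at 23 h.

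Tests used limma 3.58.1 in R 4.3.3, with Benjamini-Hochberg adjustment over all features tested. The treated arrays were fitted alone because of their wider spread, and the time-course arrays in 1 fit, with dye coded as 0.5 or -0.5. The script was tested on simulated data. Named genes were the members, a fixed set of 21 listed genes (15 on the platform), any listed gene called in a comparison, and the 3 genes most alike to each member. Arrays have no read depth, and no intensities were used, so their number limits the precision. At most 0.289% of values were identical between any 2 arrays. Alternatives changed the dye term, centring, extremes, scaling, filter, probes, array weights, signs and the arrays used.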

Additional observations from a re-analysis of the deposited data

Results flagged for a closer look

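In 4 of 120 gene and group combinations of 4 arrays, 1 array lay far from the other 3, by a gap that exceeded Dixon's critical share of the group's range. Chance flags about 1 in 20 such groups if they are independent, a share that these flags did not exceed. The combinations share arrays and related genes, and Ltf enters also by probe. The comparison is therefore rough and does not bear on any single array. Lyz2 and Anxa1 were among the genes checked only because they were called in the fit without 7 h replicate 4. Their flags are therefore not independent of that choice. All 4 flags were on 7 h replicate 4. Mmp8 was at 0.50 there, against -0.60 to -0.56 on the other 3 arrays. Elane was at 0.23 against -0.45 to -0.38, Lyz2 at 0.55 against -0.43 to -0.37, and Anxa1 at 0.53 against -0.51 to -0.40. The group at 23 h had 3 arrays and was not checked in this way.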

How the results depend on the processing

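Which arrays are read as turned changed the direction of some results and not of others. With the sign of the Cy3 arrays turned, Mmp8 stayed below 0 at 7 h (-0.27), at 23 h (-0.44) and for the mean of the times (-0.17), and so did Ltf at 7 h (-0.19), 12 h (-0.03), 23 h (-0.38) and for the mean (-0.13). S100a8 kept its sign at 3 h (0.22) and 23 h (-0.35). The log2 ratios that changed sign became 0.044 for Mmp8, 0.087 for Ltf and -0.047 for S100a8 in treated cells, 0.0035 for Mmp8 and 0.083 for Ltf at 3 h, 0.064 for S100a8 at 7 h, 0.038 for Mmp8 and 0.20 for S100a8 at 12 h, and 0.033 for S100a8 over the mean of the times, where 2 features were called, with 1 for differences among the times. With the signs of 7 h replicate 4 and 23 h replicate 3 alone turned, a setting chosen after seeing the data, Mmp8 was called at 7 h (-0.56), 12 h (-0.76) and 23 h (-1.12), for the mean (-0.65) and for differences among the times (F = 19.9), Ltf at 7 h (-0.50) and 23 h (-1.15), for the mean (-0.54) and for differences (F = 21.1), and S100a8 for the mean (-0.30). Features called were then 34, 201, 61 and 129 at 3, 7, 12 and 23 h, 533 for the mean and 21 for differences. Without these 2 arrays Mmp8 was called at 7 h (-0.59) as well as 12 h and 23 h, and the means of Ltf (-0.57) and S100a8 (-0.34) were called. Features called were 20, 74, 47, 59, 354 and 10 in that fit, and without them and with no dye term, also chosen after seeing the data, 16, 69, 40, 41, 298 and 2. In that last fit Mmp8 was called at -0.58, -0.76 and -1.11 at 7, 12 and 23 h and at -0.65 for the mean, and Ltf at -1.26 at 23 h and -0.56 for the mean, while S100a8 was not called for the mean.

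At 3 h S100a8 turned to -0.028 with array weights, -0.046 with arrays scaled to the same spread and -0.0078 with quantile normalization. In treated cells 776 features were called with all 19 arrays in 1 fit, which lends these arrays the narrower spread of the time course, and 2 with array weights, but no member was. Array weights gave 3 calls at 3 h and 40 at 12 h. At 12 h, 0 features were called with the extremes kept, 5 with each probe on its own and 12 with no filter, which also gave 1 for the mean and 4 for differences, and quantile normalization gave 1 for differences. Leaving out single arrays of the full set gave S100a8 from -0.11 to 0.082 at 3 h, -0.23 to 0.14 at 7 h and -0.61 to 0.14 at 23 h, and Mmp8 from -1.11 to 0.12 at 23 h and -0.58 to -0.27 for the mean. Features called ranged from 0 to 13 at 7 h, 5 to 10 at 12 h, 0 to 1 at 23 h, 0 to 69 for the mean and 0 to 6 for differences. Replicate numbers, which also fix the dye, did not pair the arrays. Same-numbered arrays of different groups deviated with correlations of -0.11 to 0.19, over 0.1 in 4 of 36 pairs, and a replicate block over all 19 arrays gave 614 calls in treated cells, none of them a member.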
